A study of Mus musculus with 6 samples.

Results

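The genes of the proteasome, the large protease that degrades ubiquitin-tagged proteins, were examined in undifferentiated mouse embryonic stem (ES) cells of the parental line w9.5 (genotype WT) and of the Hira-/- line Cl34, called Hira-null below. Members were the probe sets with 1 gene symbol of the form Psm, a letter from a to g, a number and optional letters. This gave 55 probe sets for 49 genes, out of 21789 probe sets with 1 symbol, and all 49 genes passed the filter on low values that left 15199 genes. Of the 49 genes, 11 lie on chromosomes 8 and 11 and 38 on other chromosomes. The name pattern also takes in Psmc3ip, a meiotic recombination gene that is no part of the proteasome, and it was kept as a member and is named where it counts. Psme2b shares its probe set with Psme2 and was not a member for that reason.

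Each line was measured on 3 Affymetrix Mouse Gene 1.0 ST arrays, numbered as biological replicates 1 to 3. Both lines were grown in the same medium with serum and the leukaemia inhibitory factor product ESGRO, and the series states that cells were taken at different confluence, without saying which array had which. HIRA places the histone variant H3.3 in chromatin as a histone chaperone. The Hira-null line is 1 clone, so the loss of Hira cannot be told apart from any other difference between the lines. Nothing in the labels says how separate the replicate cultures were, so a p-value here speaks only of the spread among the 6 arrays, and that spread may be technical. The values are deposited log2 expression values, and every difference is Hira-null minus WT.

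Array medians lay between 4.93 and 5.02. Hira itself (probe set 10434252) had a log2 fold change of -0.64 (limma SE 0.19, adjusted p = 0.352), with no overlap between the lines. On principal component 1, which held 41.7% of the variance, Hira-null replicate 3 lay at 65.6 and the other arrays between -32 and 1.95, so results that turn on that array are also given without it (differences of means, chosen in part after seeing the data). All 8 ES cell markers were detected, Pou5f1 at 10.91 to 11.58 and Nanog at 10.70 to 11.12, and the summed linear level of the 8 was 10600 to 11700 on the WT arrays against 9680 to 12900 on the Hira-null arrays. The 8 fibroblast or feeder markers summed to 1160 to 2020 on the WT arrays against 989 to 1120 on the Hira-null arrays, but Vim made up 58.0% to 75.0% of that sum. Of the 8, Vim (-0.61) and Col1a2 (-0.72) lay lower and Thy1 (0.76) higher without overlap, and Col1a1, Col3a1 and Pdgfrb overlapped. Lum and Dcn stayed at 2.24 to 2.91, under the filter's threshold of 3.78. Without Hira-null replicate 3, Col1a1 (-0.79) and Pdgfrb (-0.69) also lay lower without overlap, and Col3a1 still overlapped. Among the ES cell markers Klf4 lay higher without overlap with all arrays. Without that array Pou5f1 (0.34), Nanog (0.17) and Tdgf1 (0.22) did too, and the others overlapped. The 7 endoderm markers summed to 629 to 870 on the WT arrays against 426 to 600 on the Hira-null arrays. Of these, Gata6 (-0.55), Dab2 (-0.83) and Lama1 (-0.59) lay lower without overlap, and Gata4, Sox17, Sox7 and Foxa2 overlapped. Without Hira-null replicate 3, Sox17 (-0.29) and Foxa2 (-0.11) also lay lower without overlap. Of the 3 immune markers, Ptprc read 3.31 to 3.59 and H2-Aa 2.63 to 2.77, both under the filter's threshold. Cd74 passed the filter at 4.48 to 4.89, with overlapping lines. In such bulk samples fewer cells of a type and less RNA per cell cannot be told apart.

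The 26S proteasome is built from a barrel, the 20S core, and a cap, the 19S regulatory particle. In the core, outer alpha rings gate the entry and inner beta rings carry the proteolytic sites. In the cap, a base with a ring of ATPases unfolds substrates, and a lid removes ubiquitin chains. Subunits sit in the particle in fixed proportions, and their genes lie on many chromosomes. Lymphoid cells and cells exposed to interferon use alternative catalytic beta subunits and the activator PA28, and dedicated chaperones assist assembly. Grouping the members by chromosome asks whether genes for subunits of one particle kept a common level or differed with the chromosome that holds them.

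Proteasome genes on chromosomes 8 and 11 read lower in Hira-null arrays, and most of those elsewhere stood near their WT level. All 11 members on chromosomes 8 and 11 had lower means, as did 82.7% of all genes there, with log2 fold changes from -0.88 (Psmb10) to -0.25 (Psme4) and a median of -0.42. The 38 members on other chromosomes had a median of -0.06, from -0.69 (Psme2) to 0.37 (Psma8). Of these, 26 were lower (68.4%, against 46.3% of all genes there) and 12 higher. Without Hira-null replicate 3 the medians were -0.35 and 0.07, with a change of sign in 0 of 11 and 14 of 38 members. No member passed limma's test over all probe sets (0 of 49, lowest adjusted p = 0.233), where 0.00398% of the 25142 probe sets were called lower and 0% higher. At an unadjusted p under 0.05, 7 of 11 members on chromosomes 8 and 11 were lower and 0 higher, against 27.7% lower and 0.556% higher among the 2160 genes tested there. Among the more strongly expressed genes there the share of lower genes was larger, as given below. The count of 7 was 3 without WT replicate 3, 4 without WT replicate 2 and 10 without WT replicate 1, so it depends on which WT arrays enter. On other chromosomes 2 of 38 members were lower and 2 higher, against 2.73% and 4.77% of 12991 genes. Chromosomes 8 and 11 were chosen because their genes as a whole were already known to read lower in these arrays, so the direction is described here and not tested. The median standard error of a member's fold change was 0.16, so small differences of single genes are not resolved by 3 arrays a line.

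The size of the shift among these members was close to that of the more strongly expressed genes of the same chromosomes. All genes of chromosomes 8 and 11 had a median log2 fold change of -0.25, and the 810 more strongly expressed genes among them (mean above 7.11) had -0.41. The 9 members of those chromosomes above that level had a median of -0.41 as well. They read 8.46 or more on every array, so their level was not closely matched to that of the 810 genes. On other chromosomes the corresponding medians were 0.02 for 4255 genes and -0.07 for 31 members. Lower values were found for 93.8% of those 810 genes. At an unadjusted p under 0.05 with limma, 381 of the 810 genes and 5 of the 9 members were lower. Without overlap, 439 of the 810 genes and 6 of the 9 members lay lower.

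**Figure D1:**
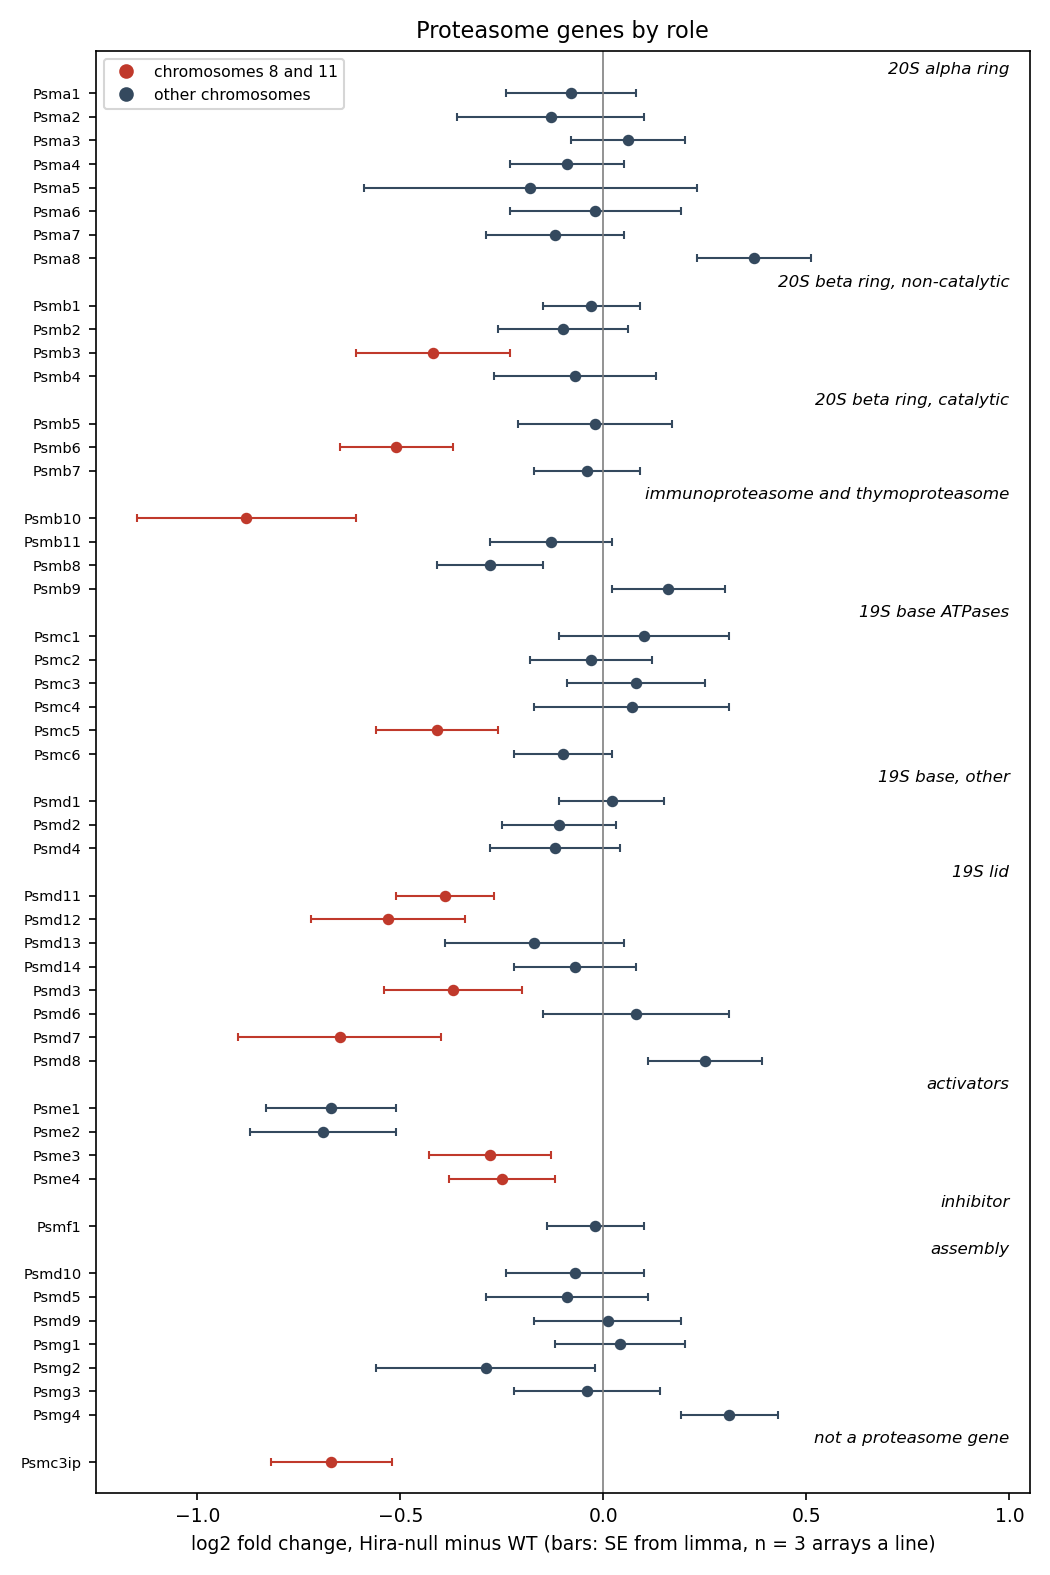
Log2 fold change (Hira-null minus WT, horizontal axis) of the 49 member genes grouped by role, with bars for the standard error from limma (n = 3 arrays a line). Red points are genes on chromosomes 8 and 11, all of them left of 0, and dark points are genes on other chromosomes, of which Psme1 and Psme2 lie farthest to the left.

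Among the arrays of each line, the genes of chromosomes 8 and 11 kept a steady distance from the other members, although the whole group moved from array to array. Each gene was expressed as its deviation from its own mean over the 6 arrays. With this centring a difference between the lines takes opposite signs in WT and Hira-null arrays, so the signs below are no result of their own. For the 38 members elsewhere the median deviation was -0.18, 0.10 and 0.17 in WT replicates 1 to 3 and 0.08, 0.08 and -0.24 in Hira-null replicates 1 to 3. For the 11 members on chromosomes 8 and 11 it was 0.05, 0.30 and 0.38 on the WT arrays against -0.14, -0.13 and -0.39 on the Hira-null arrays. WT replicate 1 and Hira-null replicate 3 were thus the low arrays of both sets of genes. The difference between the sets was 0.22, 0.20 and 0.21 in WT arrays (mean 0.21 ± 0.01, SD, n = 3) and -0.22, -0.21 and -0.15 in Hira-null arrays (mean -0.19 ± 0.04, SD, n = 3). The lines differed in it by -0.40, which is larger than the spread within either line. Over all genes above a mean of 7.11 the same difference was 0.21 to 0.23 on the WT arrays against -0.22 to -0.20 on the Hira-null arrays.

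**Figure D2:**
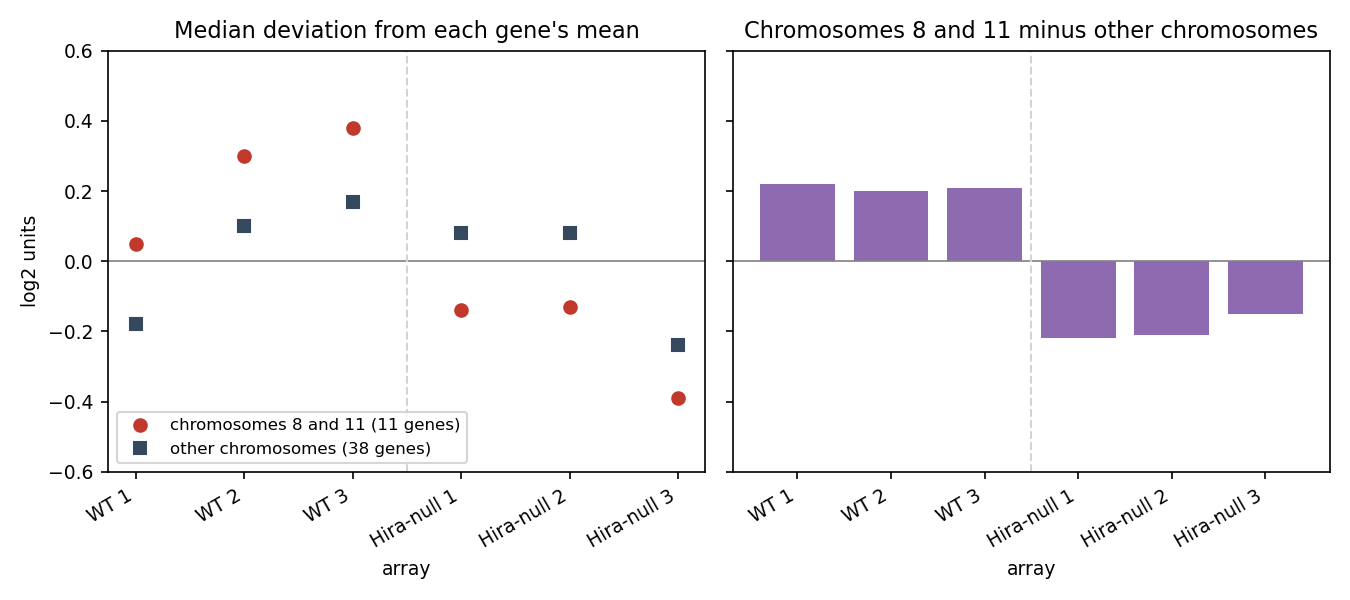
Left, median deviation (log2 units) of member genes from each gene's mean over the 6 arrays, per array, for the 11 genes on chromosomes 8 and 11 (circles) and the 38 elsewhere (squares). Right, the first minus the second, which is 0.20 to 0.22 on the WT arrays against -0.22 to -0.15 on the Hira-null arrays.

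The shared movement between arrays showed in most members. WT replicate 1 was the lowest WT array for 33 of 38 members elsewhere (86.8%) and 10 of 11 on chromosomes 8 and 11 (90.9%), against 35.2% of all genes. Hira-null replicate 3 was the lowest Hira-null array for 30 of 38 (78.9%) and 8 of 11 (72.7%), against 37.7% of all genes. These arrays were picked after their values were seen, and the members share them, so the counts carry no test. The fibroblast or feeder markers kept by the filter had their highest median deviation in WT replicate 1, at 0.76, and the endoderm markers too, at 0.40. In Hira-null replicate 3 the same medians were 0.15 and -0.01. The part of these cells, and of confluence, in the shared movement was not tested.

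With the median of the members elsewhere subtracted from each array, an alternative chosen after seeing the data, 10 of 11 members on chromosomes 8 and 11 had Hira-null values below all WT values, against 8 of 11 without the subtraction. Among all genes of those chromosomes the shares were 23.1% with it and 34.0% without it, and no member lay above, against 1.11% and 1.57%. The subtracted median comes from members, which moved together, so it takes out movement that other genes need not share. Member counts and shares of all genes after the subtraction are thus not on an equal footing, and the gap is no result. Psme4 was the exception with the subtraction, since Hira-null replicate 3 then read 9.81 against 9.51 to 9.85 in WT. Without the subtraction the 3 exceptions were Psmb3, Psmd3 and Psme3. On other chromosomes 4 of 38 members had no overlap and lay lower and 2 lay higher, against 5.49% and 8.85% of genes there. The 4 were Psme1, Psme2, Psmb8 and Psmc6 (12 genes without WT replicate 1, the low WT array), and the 2 were Psma8 and Psmg4. With the subtraction 3 lay lower (Psma7, Psme1 and Psme2) and 3 higher (Psma3, Psma8 and Psmg4), against 2.76% and 7.25%.

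The 8 alpha ring genes all lie outside chromosomes 8 and 11. Psma1 to Psma7, which encode the ring of the common proteasome, had log2 fold changes from -0.18 (Psma5) to 0.06 (Psma3), and the lines overlapped for each of the 7. Psma5 varied most, at 8.23, 8.99 and 9.0 on the WT arrays against 8.97, 9.06 and 7.65 on the Hira-null arrays, so its low values were WT replicate 1 and Hira-null replicate 3. Without Hira-null replicate 3 its log2 fold change was 0.28, the 7 genes ranged from -0.01 (Psma4) to 0.28, and Psma2 lay above WT without overlap, by 0.13. Psma8, the alpha subunit of the testis proteasome, read 6.45, 6.31 and 6.60 on the WT arrays against 6.76, 6.75 and 6.95 on the Hira-null arrays. All Hira-null values of Psma8 lay above WT, with a log2 fold change of 0.37 (limma SE 0.14, adjusted p = 0.424), the highest of any member.

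Among the beta ring genes, the pair on chromosome 11 read lower and the other 5 did not stand apart from WT. Psmb6 encodes the beta1 subunit with caspase-like activity. It read 10.20, 10.47 and 10.55 on the WT arrays against 9.86, 9.84 and 10 on the Hira-null arrays, so the lines did not overlap. Its log2 fold change was -0.51 (SE 0.14, 1.42-fold lower, unadjusted p = 0.00879 and adjusted p = 0.321 with limma). The other catalytic subunits of the same ring are encoded on chromosomes 14 and 2. Psmb5, the chymotrypsin-like beta5, averaged 8.44 ± 0.29 on the WT arrays against 8.42 ± 0.23 on the Hira-null arrays (SD, n = 3), a difference of -0.02. Psmb7, the trypsin-like beta2, averaged 10.43 ± 0.12 and 10.38 ± 0.08, a difference of -0.04.

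Psmb3, the non-catalytic beta3 subunit on chromosome 11, read 10.42, 11 and 10.82 on the WT arrays against 10.41, 10.44 and 10.13 on the Hira-null arrays. Its lowest WT value, from replicate 1, lay within the Hira-null range, and the log2 fold change was -0.42 (SE 0.19, unadjusted p = 0.0579 with limma). A further Psmb3 probe set, 10434643, gave the same -0.42, at 9.87, 10.43 and 10.32 on the WT arrays against 9.91, 9.89 and 9.55 on the Hira-null arrays. The identifier of that probe set lies among those of chromosome 16 genes (5 of its 8 nearest named neighbours), and signal from copies of the gene was not separated. Psmb1, Psmb2 and Psmb4, the remaining non-catalytic members, differed by -0.03, -0.10 and -0.07, and their lines overlapped. Without Hira-null replicate 3 the 5 beta ring genes outside chromosome 11 lay between -0.02 (Psmb7) and 0.11 (Psmb5).

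**Figure D3:**
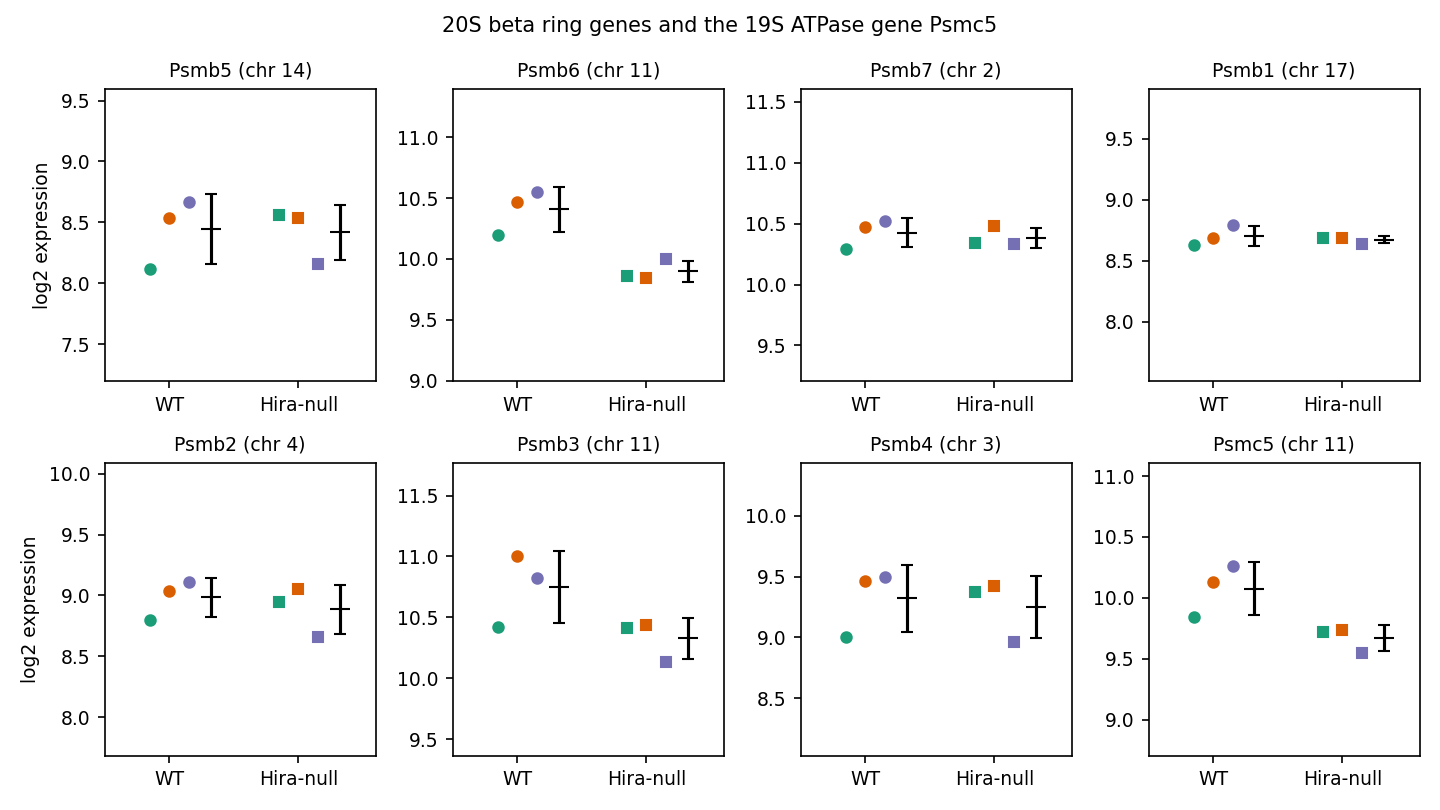
Log2 expression of the 7 beta ring genes of the common proteasome and of Psmc5 on each array (circles WT, squares Hira-null; green, orange and violet are replicates 1, 2 and 3), with the mean and SD of each line beside the points. Each panel spans the same number of log2 units, and the Hira-null points of Psmb6 and Psmc5, on chromosome 11, lie below all WT points.

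Promoters were looked at because members moved together between arrays and because the genes of the same ring differed between chromosomes. RefSeq promoter sequences of GRCm38.p6 (250 bases before to 50 after a start) were at hand for 41 of the 49 members. The antioxidant response element TGACNNNGC, bound by the factors NFE2L1 and NFE2L2 that drive proteasome genes, was searched on both strands. It occurred in 3 of 9 members on chromosomes 8 and 11, in 3 of 32 elsewhere and in 14% of all 27025 genes of the table. The CCAAT box, CCAAT, occurred in 3 of 9, 12 of 32 and 41.1%. These shares rest on few genes, and a match is a description of letters and not of binding. The 250 bases before the start are given below for Psmb6 and Psmb5, catalytic subunits of 1 ring that differ in chromosome and hold the same element, for Psmd12 and Psmb3 of chromosome 11, and for the immunoproteasome gene Psmb8. Capitals mark matches to TGACNNNGC, CCAAT and the interferon motifs TTCNNNGAA (a gamma-activated site) and the core of the interferon-stimulated response element (GAAA, any pair of bases, GAAA), each on either strand, and sequences are 5′ to 3′ on the strand of the gene.
Psmb6, chr11:70525107-70525356, plus strand: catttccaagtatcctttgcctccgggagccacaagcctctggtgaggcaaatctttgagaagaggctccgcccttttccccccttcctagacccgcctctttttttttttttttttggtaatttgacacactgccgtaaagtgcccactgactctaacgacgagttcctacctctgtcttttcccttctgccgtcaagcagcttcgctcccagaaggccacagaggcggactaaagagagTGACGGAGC
Psmb5, chr14:54617996-54618245, minus strand: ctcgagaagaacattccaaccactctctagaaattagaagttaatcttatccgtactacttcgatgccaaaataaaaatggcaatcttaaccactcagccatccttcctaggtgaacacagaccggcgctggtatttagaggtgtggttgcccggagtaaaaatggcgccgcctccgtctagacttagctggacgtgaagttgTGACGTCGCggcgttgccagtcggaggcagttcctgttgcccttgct
Psmd12, chr11:107479278-107479527, plus strand: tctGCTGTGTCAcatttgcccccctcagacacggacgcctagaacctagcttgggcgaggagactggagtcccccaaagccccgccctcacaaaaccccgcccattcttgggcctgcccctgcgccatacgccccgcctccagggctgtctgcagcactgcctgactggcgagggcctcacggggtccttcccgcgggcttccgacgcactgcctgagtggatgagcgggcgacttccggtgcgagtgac
Psmb3, chr11:97703184-97703433, plus strand: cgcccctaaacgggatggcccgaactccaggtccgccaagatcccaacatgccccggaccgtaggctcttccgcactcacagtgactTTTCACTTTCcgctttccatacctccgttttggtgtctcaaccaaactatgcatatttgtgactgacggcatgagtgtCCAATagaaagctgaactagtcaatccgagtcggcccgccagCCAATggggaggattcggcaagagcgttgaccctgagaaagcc
Psmb8, chr17:34197945-34198194, plus strand: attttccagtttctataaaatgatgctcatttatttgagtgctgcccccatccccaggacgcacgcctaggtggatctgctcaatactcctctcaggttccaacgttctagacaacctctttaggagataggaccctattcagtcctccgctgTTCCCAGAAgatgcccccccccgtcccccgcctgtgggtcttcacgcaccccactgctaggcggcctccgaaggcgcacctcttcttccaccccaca
In Psmb6 the element lies directly before the start, and in Psmb5 its first base is at position -47 from the start. Psmd12 holds it on the opposite strand from position -247. Psmb3 holds CCAAT at -85 and -43. Psmb6 and Psmb5 had log2 fold changes of -0.51 and -0.02 with the same element in both windows, a difference between genes that was not tested.

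In the 19S base, Psmc5 was the 1 ATPase gene on chromosomes 8 and 11 and the lowest of the 6 by fold change. It read 9.84, 10.13 and 10.26 on the WT arrays against 9.72, 9.74 and 9.55 on the Hira-null arrays, without overlap. The log2 fold change was -0.41 (SE 0.15, 1.33-fold lower, unadjusted p = 0.0312 and adjusted p = 0.428 with limma). The other ATPase genes ranged from -0.10 (Psmc6) to 0.10 (Psmc1), and from -0.05 to 0.26 for the same genes without Hira-null replicate 3, where Psmc5 was at -0.35. Psmc6 also lay lower without overlap, at 9.73 to 9.79 on the WT arrays against 9.54 to 9.72 on the Hira-null arrays, but by a small margin (unadjusted p = 0.41 with limma). The scaffold genes Psmd1 and Psmd2 and the ubiquitin receptor gene Psmd4 differed by 0.02, -0.11 and -0.12 (0.08, 0.00 and -0.17 without that array), and their lines overlapped.

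The 8 lid genes divide evenly between chromosomes 8 and 11 and the rest of the genome, and their fold changes divided with them. The 4 on chromosomes 8 and 11 had a median of -0.46, and the 4 elsewhere had 0.01. Psmd11 read 10.12, 10.23 and 10.32 on the WT arrays against 9.89, 9.75 and 9.86 on the Hira-null arrays, which gives a log2 fold change of -0.39 (SE 0.12, unadjusted p = 0.0152 with limma). Psmd12 read 9.87, 10.05 and 10.13 on the WT arrays against 9.61, 9.73 and 9.11 on the Hira-null arrays. Its log2 fold change was -0.53 (SE 0.19, unadjusted p = 0.0261 with limma), and -0.35 without Hira-null replicate 3. Both genes encode scaffold subunits of the lid, and neither overlapped between the lines.

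Psmd7, on chromosome 8, encodes the partner of the deubiquitinase subunit. It read 9.52, 9.79 and 9.70 on the WT arrays against 9.37, 9.23 and 8.46 on the Hira-null arrays, so every Hira-null value was below WT and replicate 3 was far below. The log2 fold change was -0.65 (SE 0.25, unadjusted p = 0.0343 with limma), and -0.37 without that array. Psmd3 read 9.29, 9.53 and 9.75 on the WT arrays against 9.23, 9.29 and 8.95 on the Hira-null arrays. Its lines met at 9.29, with a log2 fold change of -0.37 (SE 0.17, unadjusted p = 0.0659 with limma).

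The lid genes elsewhere include Psmd14, the deubiquitinase itself, on chromosome 2. It averaged 9.36 ± 0.13 on the WT arrays against 9.29 ± 0.19 on the Hira-null arrays, a difference of -0.07. Psmd6 and Psmd13 differed by 0.08 and -0.17, and Psmd8 by 0.25 (SE 0.14, unadjusted p = 0.122 with limma). Without Hira-null replicate 3 the differences were 0.04 for Psmd14, 0.26 for Psmd6, 0.00 for Psmd13 and 0.16 for Psmd8. The lines overlapped for all 4, with or without that array. Per array, the median deviation of the 4 lid genes on chromosomes 8 and 11 minus that of the 4 elsewhere was 0.35, 0.16 and 0.19 on the WT arrays against -0.25, -0.13 and -0.24 on the Hira-null arrays.

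**Figure D4:**
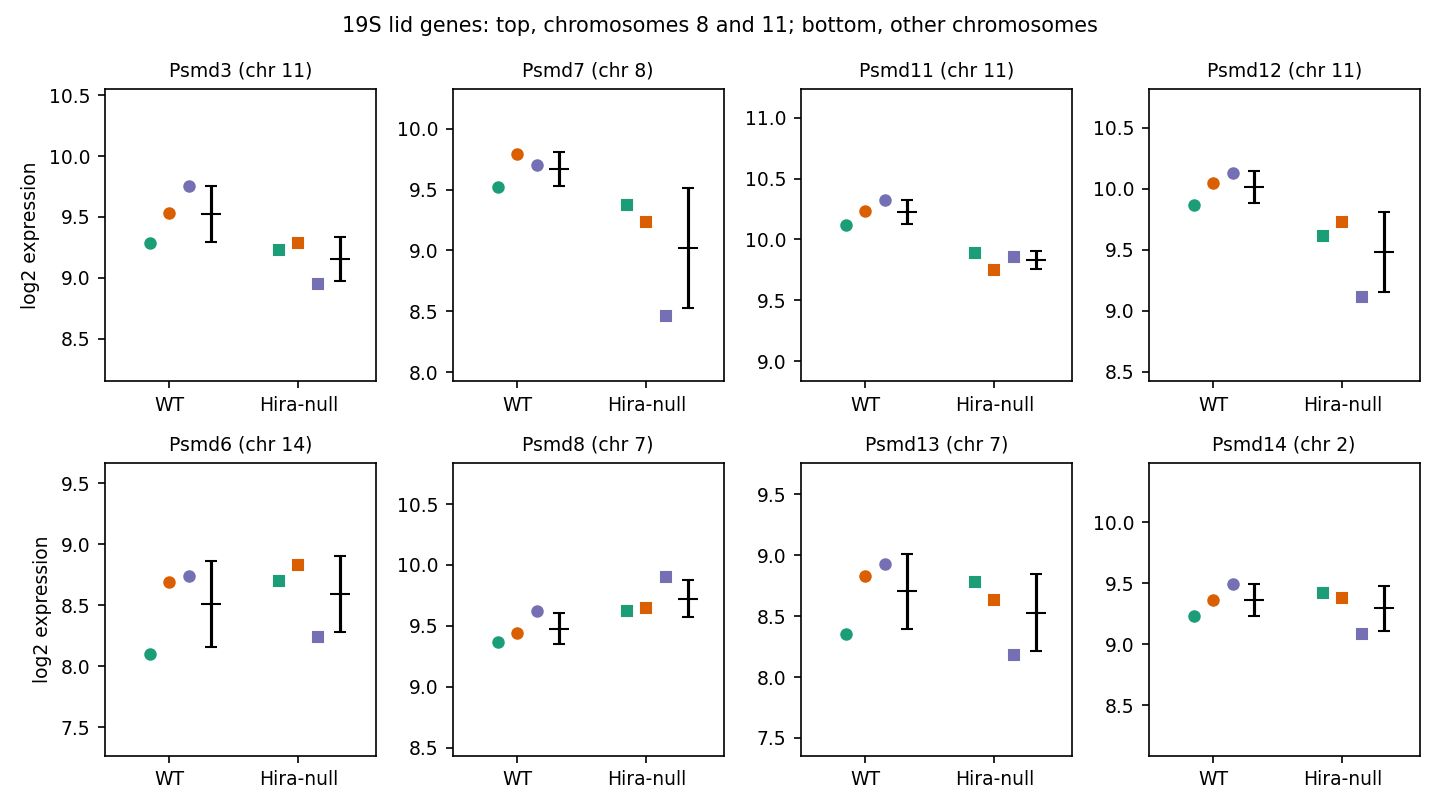
Log2 expression of the 8 lid genes on each array (circles WT, squares Hira-null; green, orange and violet are replicates 1, 2 and 3), with the mean and SD of each line (n = 3) beside the points. The top row holds the genes on chromosomes 8 and 11, with log2 fold changes of -0.65 to -0.37, and the bottom row those elsewhere, with -0.17 to 0.25.

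The activator genes all read lower, including a pair that lies outside chromosomes 8 and 11. Psme1 and Psme2 encode the alpha and beta subunits of PA28, the interferon-inducible activator, and both lie on chromosome 14. Psme1 read 8.83, 8.37 and 8.66 on the WT arrays against 7.85, 8.12 and 7.88 on the Hira-null arrays, without overlap, which gives a log2 fold change of -0.67 (SE 0.16, unadjusted p = 0.00449 and adjusted p = 0.263 with limma). Psme2 read 7.61, 7.99 and 8.22 on the WT arrays against 7.38, 7.26 and 7.10 on the Hira-null arrays, also without overlap. Its log2 fold change was -0.69 (SE 0.18, unadjusted p = 0.00702 and adjusted p = 0.301 with limma). These were the 2 genes counted as lower at an unadjusted p under 0.05 outside chromosomes 8 and 11, and they lay at -0.53 and -0.79 with both low arrays (WT replicate 1, Hira-null replicate 3) left out. Psme2 has a near-identical copy, Psme2b, so its signal may include that of the copy. The identifier of the probe set that carries both symbols lies between those of Psmd12 and Nfe2l1, which are on chromosome 11. The Psme2 value is thus not certain to be free of signal from that chromosome, and the share of the copy was not separated.

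The other activators lie on chromosome 11 and differed less. Psme3, the nuclear activator PA28 gamma, read 9.62, 9.96 and 10.04 on the WT arrays against 9.62, 9.67 and 9.48 on the Hira-null arrays, which gives a log2 fold change of -0.28 (SE 0.15, unadjusted p = 0.106 with limma). Psme4, which encodes PA200, read 9.67, 9.84 and 9.68 on the WT arrays against 9.51, 9.35 and 9.57 on the Hira-null arrays, which gives a log2 fold change of -0.25 (SE 0.13, unadjusted p = 0.0866 with limma). Psme4 did not overlap between the lines, and Psme3 did. Psmf1, the inhibitor PI31 on chromosome 2, averaged 7.66 ± 0.03 and 7.64 ± 0.10, a difference of -0.02.

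The immunoproteasome genes did not read as 1 group. Psmb10, the immune counterpart of beta2 on chromosome 8, had the largest difference of any member. It read 6.35, 7.03 and 7.45 on the WT arrays against 6.17, 6.05 and 5.97 on the Hira-null arrays, so the lines did not overlap and WT varied widely. The log2 fold change was -0.88 (SE 0.27, 1.84-fold lower, unadjusted p = 0.0138 and adjusted p = 0.364 with limma), between -1.18 and -0.63 when single arrays were left out. Psmb8 and Psmb9, the counterparts of beta5 and beta1, lie on chromosome 17. Psmb8 read 4.45, 4.52 and 4.72 on the WT arrays against 4.25, 4.40 and 4.19 on the Hira-null arrays, not far above the filter's threshold of 3.78, a difference of -0.28 (SE 0.13, unadjusted p = 0.0722 with limma). Psmb9 read 6.19, 6.49 and 6.42 on the WT arrays against 6.37, 6.55 and 6.65 on the Hira-null arrays, a difference of 0.16 (0.09 without Hira-null replicate 3) with overlapping lines. Psmb11, the subunit of the thymus proteasome, stayed between 4.01 and 4.51, with a difference of -0.13.

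Immunoproteasome and PA28 genes are known targets of interferon signalling, so genes of that response were read beside them. Of 9 listed genes, 6 had a probe set with 1 symbol kept by the filter, with 2 lower, 3 higher and Tap2 at 0.00. Irf1, an interferon-regulated transcription factor on chromosome 11, read 7.20, 7.75 and 7.80 on the WT arrays against 6.74, 6.79 and 5.98 on the Hira-null arrays. The lines did not overlap, and the log2 fold change was -1.08 (SE 0.27, 2.11-fold lower, unadjusted p = 0.00513 and adjusted p = 0.268 with limma). Without Hira-null replicate 3 Irf1 was at -0.82. Tap1 differed by 0.55, Tapbp by 0.25, Nlrc5 by 0.09 and B2m by -0.51, with overlapping lines. Most of these rest on Hira-null replicate 3, where Tap1 read 6.95 against 5.13 and 5.40 on the other Hira-null arrays and B2m 8.79 against 6.34 and 6.24. Without that array Tap1 differed by -0.01, Tap2 by -0.21, Tapbp by 0.10 and B2m by -1.34, and B2m then lay below WT without overlap. The motif TTCNNNGAA and the interferon-stimulated response element core, chosen after values were seen, occurred in 3 and 5 of the 41 member promoters, against 9.55% and 3.99% of all genes of the table. Psmb8 holds the first at position -97, in the sequence given above, and Psme1 the second from position 10 after the start. The other members with the first were Psmd2 and Psmg1, and those with the second were Psmb3, Psmd4, Psmd9 and Psmg4. The log2 fold changes of these others ran from -0.42 (Psmb3) to 0.31 (Psmg4), so the motifs were not confined to interferon-linked or lower members.

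**Figure D5:**
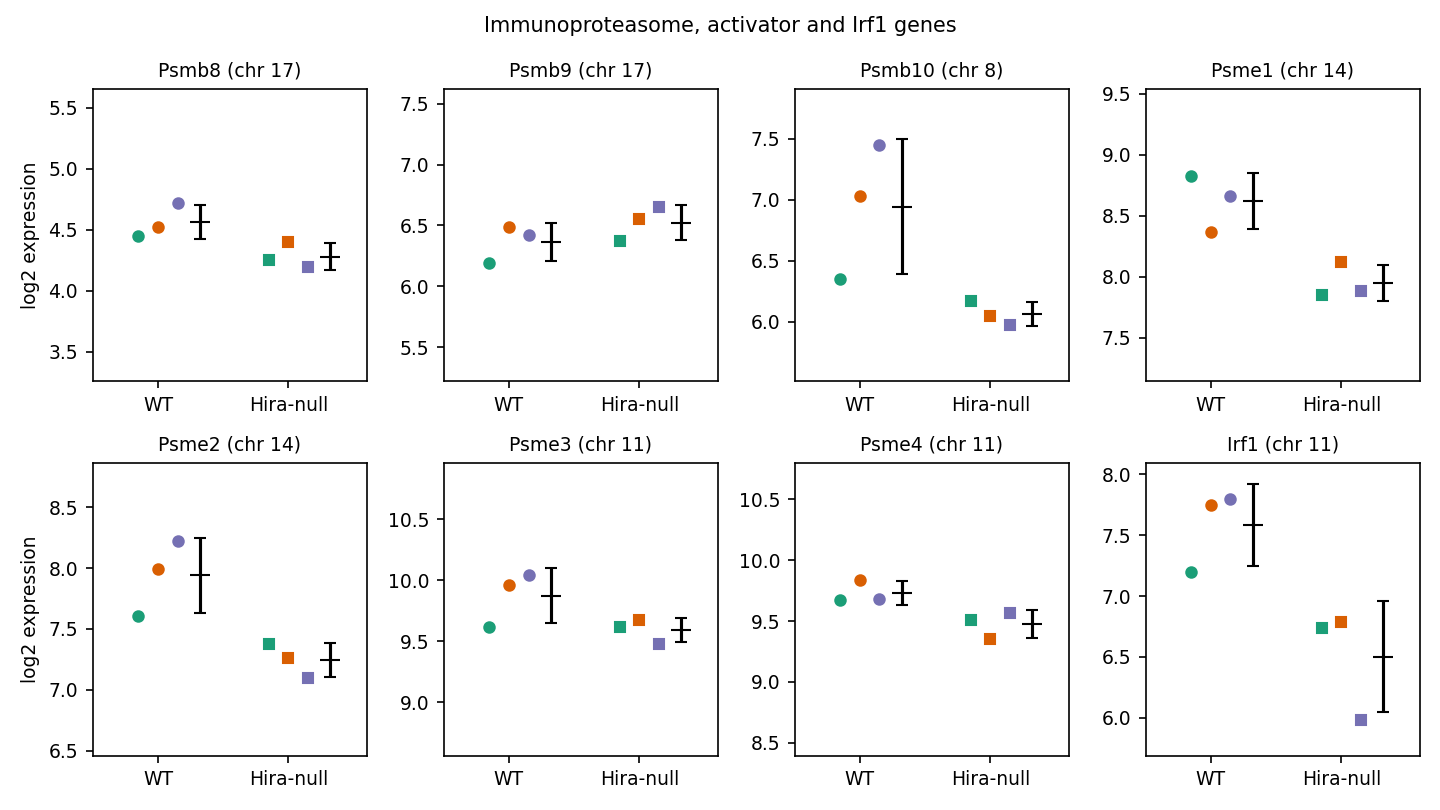
Log2 expression of 3 immunoproteasome genes, the 4 activator genes and Irf1 on each array (circles WT, squares Hira-null; green, orange and violet are replicates 1, 2 and 3), with the mean and SD of each line (n = 3). Hira-null points lie below all WT points for Psmb8, Psmb10, Psme1, Psme2, Psme4 and Irf1, and the lines overlap for Psmb9 and Psme3.

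The 7 assembly genes all lie elsewhere, and their median was -0.04. Psmg4, of the chaperones that guide the alpha ring, read 5.90, 5.90 and 6.02 on the WT arrays against 6.32, 6.25 and 6.17 on the Hira-null arrays, which gives a log2 fold change of 0.31 (SE 0.12, unadjusted p = 0.0356 and adjusted p = 0.449 with limma). With Psma8 it made up the members that lay higher without overlap. Psmg1, Psmg2 and Psmg3 differed by 0.04, -0.29 and -0.04. Psmg2 read 7.21 in Hira-null replicate 3 against 7.83 to 8.29 on the other arrays, and its difference was 0.00 without that array. The base chaperones Psmd5, Psmd9 and Psmd10 differed by -0.09, 0.01 and -0.07, and by 0.10, 0.11 and 0.10 without Hira-null replicate 3. Psmc3ip, the recombination gene caught by the name pattern, lies on chromosome 11 and read 7.40, 7.40 and 7.46 on the WT arrays against 6.88, 6.88 and 6.48 on the Hira-null arrays. Its log2 fold change was -0.67 (limma SE 0.15, adjusted p = 0.233), the lowest p of any member, and without it the median of the members on chromosomes 8 and 11 was -0.41.

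Of other genes of the ubiquitin and proteasome pathway, the 2 measured on chromosome 11 read lower, and those elsewhere mostly stood near WT. Of 28 listed genes, 19 were read by a probe set with 1 symbol kept by the filter. None passed limma's test (0 of 19). At an unadjusted p under 0.05, 3 were lower and 0 higher, against 6.29% and 4.17% of all genes. The 2 on chromosome 11 were both among the 3, and so was 1 of the 17 elsewhere, where the share was 2.73%. Of all genes on chromosomes 8 and 11, 27.7% were lower at that p and 34.0% lay lower without overlap. Both chromosome 11 genes had means above 7.11. At that level 381 of 810 genes of chromosomes 8 and 11 were lower at that p and 439 lay lower without overlap, so the 2 genes are no result about the pathway. Nploc4, a cofactor of the segregase VCP, read 9.23, 9.34 and 9.38 on the WT arrays against 8.95, 8.82 and 8.89 on the Hira-null arrays, which gives a log2 fold change of -0.43 (SE 0.12, unadjusted p = 0.00825 with limma). Nfe2l1, whose product NRF1 drives proteasome genes when proteolysis falls short, read 8.85, 8.54 and 8.66 on the WT arrays against 8.29, 8.18 and 8.51 on the Hira-null arrays. Its log2 fold change was -0.36 (SE 0.15, unadjusted p = 0.0472 with limma), and neither gene overlapped between the lines.

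The remaining one was Vcp, the segregase itself, on chromosome 4, at -0.36 (SE 0.14, unadjusted p = 0.0374 with limma). The 17 pathway genes elsewhere had a median of 0.01. The related factor gene Nfe2l2 differed by 0.19 (-0.04 without Hira-null replicate 3 and -0.05 without WT replicate 2). Pomp, which matures the core particle, differed by 0.01 (0.21 without Hira-null replicate 3). The lines overlapped for both genes. Ngly1, the glycanase that processes NRF1, differed by 0.37 (SE 0.17, unadjusted p = 0.0585 with limma), Txnl1 by -0.26 (-0.11 without Hira-null replicate 3) and Rad23b by 0.18. Adrm1, a ubiquitin receptor of the base, was not analysed here, for want of a probe set with 1 symbol.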

How the data were processed

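The authors deposited log2 expression values of 35557 probe sets, made with GCRMA per the submitters' processing notes, without a version. Values from 1.14 to 14.03 fit a log2 scale. Genome build and annotation were not given in the sources used here. GCRMA includes quantile normalization, which hides any shift common to most genes. Symbols came from the platform table (1621 probe sets with several symbols were left unnamed) and were updated through Entrez identifiers with the GRCm38.p6 gene table, which also gave chromosomes (21698 of 21789 matched).

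A probe set was kept with at least 3 of 6 arrays above 3.78 (30th percentile), leaving 25142. Lines were compared with limma 3.58.1 in R 4.3.3 (lmFit, eBayes, two-sided, no covariates), with Benjamini-Hochberg adjustment over these and a threshold of 0.05. A gene was represented by its probe set of highest mean, and 5 members had several. For Psma3, Psma5 and Psmc1 that probe set's identifier lies among those of another chromosome than the gene's. The fit was tested on simulated data of the same design, with 200 changed probe sets. At the adjusted threshold it called 32% of them for a log2 change of 1 and 87% for a log2 change of 2. Changes between 0 and 1, where the members' differences lie, were not simulated. Members, chromosomes and lists were chosen with earlier results of these data known. Named genes were all members on chromosomes 8 and 11, catalytic and immune subunits, elsewhere the 6 with smallest p and the highest and lowest of each role, and from the pathway those on chromosome 11, Nfe2l1, Nfe2l2, Pomp, Adrm1 and the 4 others with smallest p. Others named are added for completeness of a role. Alternatives covered filter, scaling, eBayes settings, array weights, a replicate block, left-out arrays and averaging of probe sets.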

Additional observations from a re-analysis of the deposited data

How the results depend on the processing

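Members called by limma numbered 0 under every alternative run. The median of the members on chromosomes 8 and 11 lay between -0.58 (without WT replicate 1) and -0.35 (without Hira-null replicate 3) with single arrays left out, and the median elsewhere between -0.14 and 0.07. The difference of the medians was -0.36 in the main setting, -0.44 to -0.36 with single arrays left out, and -0.40 both with arrayWeights and with WT replicate 1 left out together with Hira-null replicate 3. Members on chromosomes 8 and 11 lower at an unadjusted p under 0.05 numbered 3 (without WT replicate 3) to 10 (without WT replicate 1), and 4 without WT replicate 2, against 7. Without overlap there were 8 to 11. Elsewhere, lower members without overlap numbered 4 to 12 with single arrays left out (12 without WT replicate 1), 12 with that pair left out, and 2 with arrays centred on genes of other chromosomes, and higher ones 2 to 4 (4 without Hira-null replicate 1). Elsewhere, higher members at that p numbered 0 to 1 with single arrays left out, 1 with median centring, either eBayes trend setting, arrayWeights or the replicate block, and 0 with arrays centred on genes of other chromosomes or with that pair left out, against 2.

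Small differences of genes elsewhere changed sign. Psmb5 read 0.00 with quantile normalization and -0.18 to 0.11 with single arrays left out. Pomp read 0.00 with median centring, -0.05 with arrays centred on other chromosomes and -0.14 to 0.21. Psmd1 read -0.03 with that centring and -0.06 to 0.08. Psmg1 read -0.01 with that centring, -0.02 with arrayWeights, -0.08 with that pair left out, and -0.11 to 0.14. Psma5 read 0.02 with that pair left out and -0.43 to 0.28. With single arrays left out the ranges were -0.07 to 0.26 for Psmc1, -0.12 to 0.26 for Psmd6, -0.04 to 0.13 for Psma3, -0.05 to 0.42 for Nfe2l2, -0.11 to 0.00 for Psmb7, -0.07 to 0.01 for Psmb1, -0.07 to 0.03 for Psmf1, -0.35 to 0.00 for Psmd13, -0.19 to 0.02 for Psmb2 and -0.44 to 0.00 for Psmg2. The cause was not tested.

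The deviations of same-numbered arrays from their line means correlated at -0.342, 0.173 and -0.0989, and the main fit used no pairing. Deviations within a line cancel out, so these values depend on each other. They cannot exclude that same-numbered arrays were handled together. With the replicate block, members on chromosomes 8 and 11 lower at that p numbered 6. The number of arrays limits the precision.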

Other observations

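Values that enter no comparison above concern probe sets beside the members. The probe set that carries both Psme2b and Psme2 (10385511) read 5.87, 6.46 and 6.55 on the WT arrays against 5.76, 5.63 and 5.28 on the Hira-null arrays, below WT on every array, as the Psme2 probe set did, with a log2 fold change of -0.74 (limma SE 0.22, adjusted p = 0.358). Psme3ip1, a chromosome 8 gene whose product binds PA28 gamma and whose name falls outside the pattern, read 7.47, 7.73 and 7.63 on the WT arrays against 7.42, 7.43 and 7.41 on the Hira-null arrays, which gives a log2 fold change of -0.19 (limma SE 0.12, adjusted p = 0.681). The 3 probe sets of Psma3 gave log2 fold changes of 0.08, 0.05 and 0.06, both of Psmc1 gave 0.11 and 0.10, both of Psmd2 -0.11 and -0.13, and both of Psma5 -0.27 and -0.18.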
